A study of Rattus norvegicus with 6 samples.

Results

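Transcripts of 9 genes of the CCN family and of the Hippo-YAP pathway were examined in synovial fibroblast-like cells of arthritic rats cultured in 3 sera. The 9 were the CCN genes Ctgf, Cyr61, Nov, Wisp1 and Wisp2, the YAP target Ankrd1, the YAP targets and regulators Amotl2 and Lats2, and Yap1 itself; they were taken by symbol from the 16499 distinct symbols of the expression table, using the most abundant transcript of each symbol. Each of the 9 had 1 transcript, none of which overlapped a transcript of another gene. Cells came from the synovium of 2 female Wistar rats with induced arthritis, labelled rheumatoid arthritis, taken before any therapy and expanded in fetal bovine serum; all 3 groups share this origin. The cells of each rat were then divided over medium with fetal bovine serum (FBS, labelled control), with serum of untreated rats (MS-), or with serum of rats after 18 days of needle stimulation (MS+, labelled acupuncture), giving 6 libraries with 2 per serum. Replicate 1 is rat 1 and replicate 2 is rat 2 in every group, so the replicate is the rat that gave the cells; the number of animals that gave each serum was not stated. One label field calls the MS- rats healthy, whereas the disease field names arthritis. The title names arthritis for the cells, as it does in all 3 groups. The study describes MS- serum as that of untreated rats with induced arthritis, drawn before any therapy began. MS+ serum was drawn at day 18, so these sera also differ in the time of sampling. FBS also differs from the other sera in species.

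The CCN proteins are secreted into the matrix, where they bind integrins, proteoglycans and growth factors and shape adhesion, matrix production and growth of fibroblasts. Most carry a cysteine-rich carboxyl-terminal module, which Wisp2 lacks. In the Hippo pathway, the kinases Stk3 and Stk4 with the scaffold Sav1 activate Lats1 and Lats2, which phosphorylate YAP and its paralogue TAZ (gene Wwtr1) and keep them out of the nucleus; YAP or TAZ that escape phosphorylation bind TEAD factors and drive transcription. Ctgf, Cyr61 and Ankrd1 are the customary readouts of that activity, and Amotl2 and Lats2 are targets that act back on YAP. Serum lipids, cell spreading and matrix stiffness are known inputs to YAP, and TGF-beta acts on Ctgf through SMAD proteins.

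The stretches of 250 bases upstream of the transcription start are shown for the members that had one in the RefSeq promoter table of assembly GRCr8 (4 of the 9), because TEAD binding at such stretches is how YAP and TAZ reach Ctgf and Cyr61. Each is written 5′ to 3′ in the direction of the gene, with matches to the TEAD letters GGAATG, on either strand, in capitals.
Ctgf: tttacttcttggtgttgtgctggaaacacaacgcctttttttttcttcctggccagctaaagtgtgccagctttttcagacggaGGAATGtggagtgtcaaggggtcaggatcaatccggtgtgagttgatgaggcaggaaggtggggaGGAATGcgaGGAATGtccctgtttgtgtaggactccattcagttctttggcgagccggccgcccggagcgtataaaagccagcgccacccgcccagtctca
Cyr61: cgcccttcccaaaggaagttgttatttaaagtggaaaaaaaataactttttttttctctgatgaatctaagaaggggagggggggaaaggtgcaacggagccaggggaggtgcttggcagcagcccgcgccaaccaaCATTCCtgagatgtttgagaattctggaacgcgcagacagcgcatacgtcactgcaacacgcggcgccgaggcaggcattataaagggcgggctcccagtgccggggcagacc
Amotl2: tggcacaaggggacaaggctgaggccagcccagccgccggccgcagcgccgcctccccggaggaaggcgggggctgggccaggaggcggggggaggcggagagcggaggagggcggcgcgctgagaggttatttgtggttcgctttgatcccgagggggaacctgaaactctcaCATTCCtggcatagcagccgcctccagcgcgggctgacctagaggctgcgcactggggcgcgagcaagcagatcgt
Yap1: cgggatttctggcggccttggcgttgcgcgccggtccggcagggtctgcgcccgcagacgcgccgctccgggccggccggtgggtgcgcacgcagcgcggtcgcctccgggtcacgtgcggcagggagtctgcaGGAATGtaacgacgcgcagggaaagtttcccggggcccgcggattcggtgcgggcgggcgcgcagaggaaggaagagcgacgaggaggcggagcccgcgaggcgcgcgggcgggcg
The windows lie at chr1:22624615-22624864 (minus strand, Ctgf, now named Ccn2), chr2:237225690-237225939 (minus strand, Cyr61, now Ccn1), chr8:112182376-112182625 (plus strand, Amotl2) and chr8:13451438-13451687 (minus strand, Yap1), and end at the base before the annotated start. Ctgf held 3 matches, which began 166, 101 and 92 bases before the start. Cyr61, Amotl2 and Yap1 held 1 match each, beginning 113, 76 and 116 bases before the start; those of Cyr61 and Amotl2 lay on the opposite strand. Of all 33469 windows of the same length, 12.06% held at least 1 match, 0.9023% at least 2 and 0.08067% at least 3. The AP-1 letters TGANTCA, found in 6.34% of all windows, matched in none of the 4. The SMAD letters CAGAC matched 1 time in Ctgf, 2 times in Cyr61, 3 times in Yap1 and not in Amotl2. Of all windows, 42.93% held at least 1 such match, 11.49% at least 2 and 2.543% at least 3. In the 4 windows, no SMAD match overlapped a TEAD match. Nov, Wisp1, Wisp2, Ankrd1 and Lats2 were without an entry. A match of letters is a description of the sequence and does not show binding.

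In the build of the expression table, rn4, transcript spans were given without exons. Ctgf (NM_022266) spans chr1:21327100-21330215 on the minus strand, Cyr61 (NM_031327) chr2:243824303-243827262 (minus), Wisp2 (NM_031590) chr3:154748977-154760324 (plus) and Ankrd1 (NM_013220) chr1:240316123-240324801 (minus). Nov (NM_030868) at chr7:91162676-91169696 and Wisp1 (NM_031716) at chr7:104263089-104291618 lie on the same chromosome, both on the plus strand. Amotl2 (NM_031717) spans chr8:107694405-107709841 (plus), Yap1 (NM_001034002) chr8:4780845-4848881 (minus) and Lats2 (NM_001107267) chr15:36720000-36761065 (minus).

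Levels are in CPM, read counts that the authors scaled to a common library size with the TMM method. Libraries held 5463316 to 5991889 reads, and 3 reads, taken as the floor of detection, corresponded to 0.491 to 0.551 CPM. Differences were tested with limma on log2(CPM + 1) over the 9820 transcripts that reached 1 CPM in both libraries of at least 1 serum, and adjusted p-values run over all of them; a gene passed at an adjusted p under 0.05. All 9 members were among those tested. The first fit has serum as its only term. A further fit adds the rat, since the same rats stand in every group. Total degrees of freedom were 6.861 without the rat term and 15.42 with it, because limma borrows the spread across transcripts. Small p-values with the rat term rest on that borrowing and do not measure how well 2 rats agree. Unless stated, the SE of a difference between sera is from the first fit. The thresholds of the study (unadjusted p under 0.05, at least 2-fold and a mean of at least 1 CPM) are given as a separate rule. Both comparisons with FBS use the same FBS libraries and are therefore not independent. Of the fibroblast markers, collagens, Vim, Pdgfrb and Thy1 were abundant, whereas Dcn and Lum lay at or below 0.918 CPM and Prg4 between 1.27 and 3.32 CPM. Ptprc, Itgam and Cd163 of the macrophage list and Cdh5 and Tie1 of the endothelial list were at 0 in all libraries; the summed macrophage markers were 13.8 to 20.5 CPM, mostly Cd14, and the endothelial ones at most 1.47 CPM. Of 8 skeletal muscle markers, Acta1 alone made up nearly all of the 772 to 1203 CPM.

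Ctgf, which codes for connective tissue growth factor, was higher in both rat sera than in FBS, by about 1.5-fold, and did not separate MS+ from MS-. Its level was 9764 CPM in rat 1 and 10272 CPM in rat 2 with FBS, 15320 and 14666 CPM with MS-, and 14991 and 14557 CPM with MS+. The FBS libraries were the lowest in each rat, without overlap, while the MS- and MS+ libraries overlapped. The log2 fold change was 0.58 for MS- against FBS (SE 0.18, n = 2 per group, limma adjusted p = 0.136, and 0.00253 with the rat term), a ratio of means of 1.497. For MS+ against FBS it was 0.56 (SE 0.18, limma adjusted p = 0.106, and 0.00232 with the rat term), a ratio of 1.47. Ctgf thus passed in both comparisons with the rat term and in neither without it. On the recovered reads and without the rat term, Ctgf passed both by edgeR (adjusted p = 0.0330 for MS- and 0.0255 for MS+). It passed neither by limma without the filter on low values (limma adjusted p = 0.345 and 0.294). Leaving out 1 library gave log2 fold changes of 0.55 to 0.62 for MS- and 0.52 to 0.60 for MS+. Between MS+ and MS- the log2 difference was -0.02, with a 95% interval of -0.46 to 0.42 (limma adjusted p = 0.974, and 0.939 with the rat term). In bulk RNA of this kind, a change in the number of cells of one type and a change in RNA per cell cannot be told apart. The summed level of the 10 fibroblast markers also moved with the serum, from 80408 to 87630 CPM in FBS to 62456 to 64769 CPM in MS- and 70462 to 73440 CPM in MS+; its part in the result was not tested. That sum follows the collagens: Col1a1 was at 34297 to 40458 CPM in FBS, 23563 to 23624 CPM in MS- and 25507 to 28736 CPM in MS+. Vim went the other way, from 11486 and 11981 CPM in FBS to 12544 and 14340 CPM in MS- and 13972 and 16559 CPM in MS+.

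Cyr61, a close relative of Ctgf and an early serum-induced gene, varied between the rats as well as between the sera. It stood at 1678 and 1918 CPM with FBS (rat 1 and rat 2), 1701 and 2722 CPM with MS-, and 1962 and 2677 CPM with MS+. In rat 1 the MS- level was close to that in FBS, and in rat 2 it was the highest of all. Against FBS, the log2 fold change was 0.35 for MS+ (SE 0.25, limma adjusted p = 0.409, and 0.0201 with the rat term) and 0.26 for MS- (SE 0.25, limma adjusted p = 0.605, and 0.0933 with the rat term). Cyr61 therefore passed only for MS+ and only once the rat was in the fit; the difference between MS+ and MS-, 0.09, did not pass in either fit (95% interval -0.50 to 0.68, limma adjusted p = 0.910 and 0.649).

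Nov, known mainly for restraining proliferation, had the largest difference of the 9 genes in both comparisons with FBS. Its level was 270.4 CPM in rat 1 and 763 CPM in rat 2 with FBS, 1506 and 2560 CPM with MS-, and 2007 and 2837 CPM with MS+. Both FBS libraries lay below every library of the rat sera, and MS- and MS+ overlapped. The log2 fold change was 2.39 for MS+ against FBS (SE 0.48, limma adjusted p = 0.0295, and 2.59e-08 with the rat term), with a ratio of means of 4.69. For MS- against FBS it was 2.11 (SE 0.48, limma adjusted p = 0.0610, and 1.44e-07 with the rat term), a ratio of 3.93. Nov was the only member to meet the study's rule, in both comparisons. Without the filter on low values, or without FBS replicate 1, MS+ replicate 1 or MS+ replicate 2, the limma adjusted p of Nov for MS+ against FBS was 0.0661, 0.0859, 0.115 and 0.136, with log2 fold changes from 1.64 to 2.64. For MS- against FBS the log2 fold change of Nov was 1.36 when the FBS library of rat 1 was left out (limma adjusted p = 0.183) and reached 2.86 when that of rat 2 was (limma adjusted p = 0.0274). Leaving out the MS- library of rat 1 or rat 2 gave 2.49 and 1.73 (limma adjusted p = 0.145 and 0.271). The difference between MS+ and MS- was 0.28 (95% interval -0.86 to 1.43, limma adjusted p = 0.847, and 0.280 with the rat term).

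**Figure D1:**
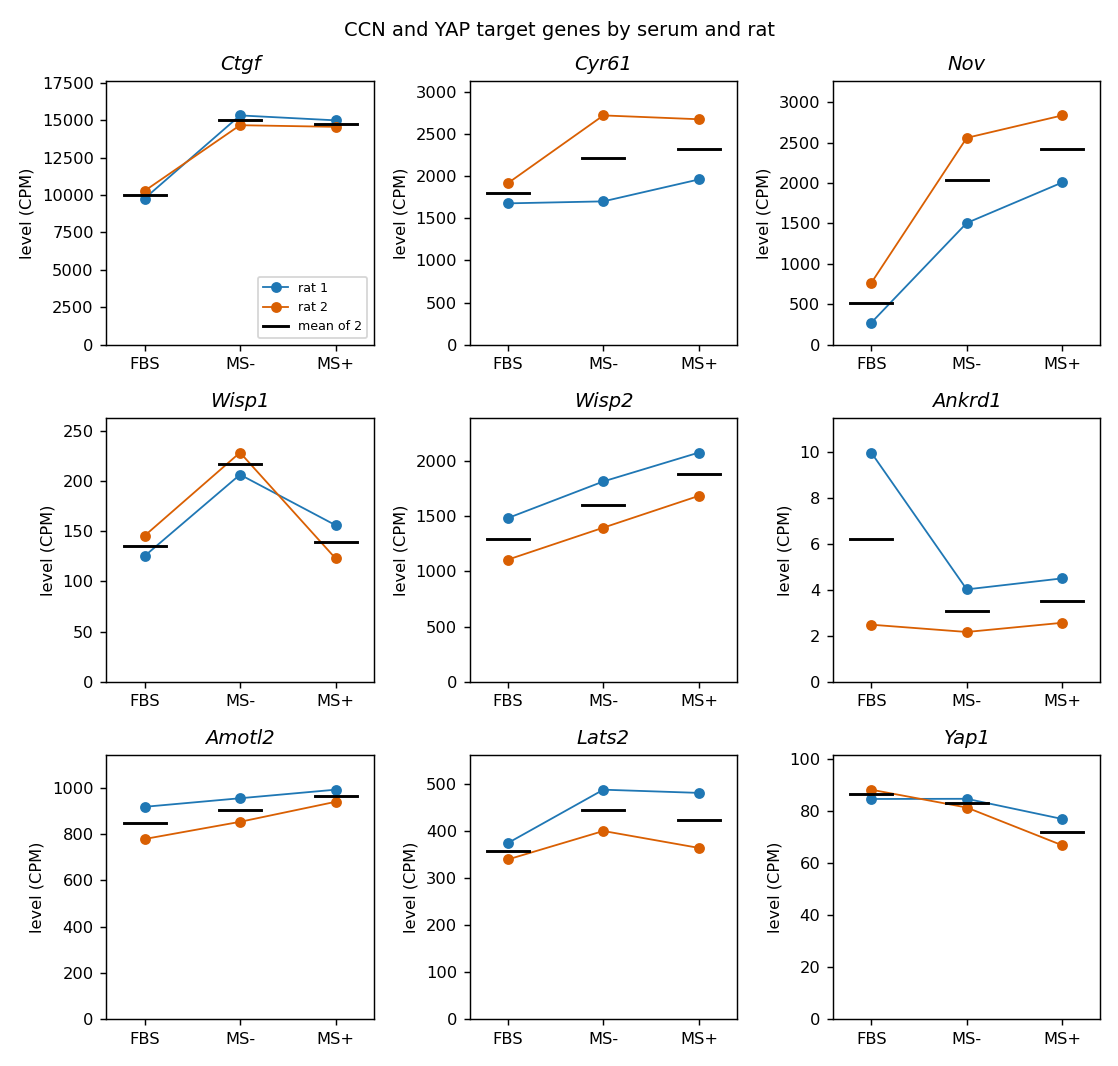
Levels of the 9 genes in CPM (vertical axes, from 0) in FBS, MS- and MS+ (horizontal axes); points are libraries joined within a rat, and black bars are means of 2 libraries. Ctgf, Cyr61, Nov, Wisp2, Amotl2 and Lats2 are lowest in FBS in both rats. Wisp1 is highest in MS- in both, and Ankrd1 lies at or below 9.99 CPM throughout.

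Wisp1, first described as a target of Wnt signalling, was the one member to pass between MS+ and MS- in any of the fits tried. It stood at 125 and 145 CPM with FBS, 206 and 228 CPM with MS-, and 156 and 123 CPM with MS+ (rat 1 and rat 2). Both MS- libraries were above all others, and MS+ overlapped FBS. Wisp1 rose in MS- against FBS by 0.68 on the log2 scale (SE 0.14, limma adjusted p = 0.0456, and 0.000462 with the rat term), a ratio of means of 1.61. In MS+ it was lower than in MS-, the log2 difference being -0.64 (SE 0.14, limma adjusted p = 0.144, and 0.00220 with the rat term). The difference was -0.40 in rat 1 and -0.89 in rat 2. MS+ and FBS did not separate (log2 difference 0.04, 95% interval -0.30 to 0.37, limma adjusted p = 0.893, and 0.838 with the rat term), and that difference was positive in rat 1, 0.32, and negative in rat 2, -0.24. The call of MS- against FBS is close to the threshold: edgeR and limma-voom on the recovered reads gave adjusted p = 0.0505 and 0.0510, limma without the low-value filter 0.0854, and limma with any 1 library left out 0.0515 to 0.233.

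Wisp2, the CCN gene without the carboxyl-terminal module, was ordered FBS, MS-, MS+ in each rat. Its level was 1482 and 1105 CPM with FBS, 1813 and 1395 CPM with MS-, and 2075 and 1683 CPM with MS+. Rat 1 was above rat 2 in every serum, so that only FBS and MS+ did not overlap. The log2 fold change was 0.55 for MS+ against FBS (SE 0.20, limma adjusted p = 0.134, and 0.000176 with the rat term) and 0.31 for MS- against FBS (SE 0.20, limma adjusted p = 0.430, and 0.0148 with the rat term). Both passed with the rat term and neither without it. The step from MS- to MS+, 0.23, did not pass in either fit (95% interval -0.24 to 0.71, limma adjusted p = 0.658 and 0.0929).

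Wisp3, the remaining CCN gene, is no member; 1 read was counted in MS- replicate 1 and none in the other libraries, on a transcript that overlaps one of another gene. Added together, the 5 CCN genes took 1.36% and 1.45% of all reads in FBS, 2.06% and 2.14% in MS-, and 2.06% and 2.18% in MS+. Both rat sera lay above FBS and overlapped each other. Ctgf supplied 66.5% to 74.6% of these reads, a share of reads that was not corrected for transcript length, so the sum largely follows Ctgf.

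In the YAP arm of the set, no member passed without the rat term. Yap1, the coactivator itself, stood at 84.6 and 88.2 CPM with FBS, 84.7 and 81.3 CPM with MS-, and 76.9 and 66.8 CPM with MS+. Both MS+ libraries were below the other 4. The log2 fold change was -0.27 for MS+ against FBS (SE 0.11, limma adjusted p = 0.162, and 0.0589 with the rat term), -0.21 for MS+ against MS- (SE 0.11, limma adjusted p = 0.434, and 0.212 with the rat term) and -0.06 for MS- against FBS (95% interval -0.31 to 0.19).

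Lats2, the kinase that phosphorylates YAP, was measured at 375 and 340 CPM with FBS, 489 and 401 CPM with MS-, and 482 and 364 CPM with MS+. MS- did not overlap FBS, whereas MS+ did. It passed only for MS- against FBS and only with the rat term (log2 fold change 0.31, SE 0.16, limma adjusted p = 0.330, and 0.0166 with the rat term). The value for MS+ against FBS was 0.23 (limma adjusted p = 0.403, and 0.0524 with the rat term), and that for MS+ against MS- was -0.08 (95% interval -0.46 to 0.30).

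Amotl2, a junctional scaffold that binds YAP, passed in no comparison and neither fit. Its level was 918 and 779 CPM with FBS, 955 and 853 CPM with MS-, and 992 and 940 CPM with MS+. It was ordered FBS, MS-, MS+ in each rat, but the log2 differences of 0.19 for MS+ against FBS, 0.09 for MS- against FBS and 0.10 for MS+ against MS- had 95% intervals that spanned 0, and limma adjusted p was 0.356, 0.712 and 0.769 (0.0923, 0.462 and 0.501 with the rat term).

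Ankrd1, a muscle-type ankyrin repeat protein and a common YAP readout, was barely expressed. It had 61 and 15 reads with FBS, 22 and 12 reads with MS-, and 25 and 14 reads with MS+, or 9.99 and 2.49 CPM, 4.02 and 2.17 CPM, and 4.50 and 2.57 CPM. The FBS library of rat 1 was the highest, and the groups overlapped in all 3 comparisons. Log2 differences of -0.63 for MS- and -0.48 for MS+ against FBS did not pass (SE 0.55, limma adjusted p = 0.566 and 0.616, and 0.129 and 0.218 with the rat term); at 95% they ranged from -1.94 to 0.67 and from -1.79 to 0.82, and leaving out FBS replicate 1 turned both positive (0.19 and 0.35). On the recovered reads edgeR gave larger values, -1.02 and -0.82 (adjusted p = 0.441 and 0.470). With the rat added to edgeR, Ankrd1 passed as lower in MS- than in FBS (-0.99, adjusted p = 0.0427) and did not pass in MS+ (-0.79, adjusted p = 0.0767). The fit without FBS replicate 1 had no rat term, and Ankrd1 was higher in rat 1 than in rat 2 in every serum. Within the rats, the log2 difference of MS- against FBS was -1.13 in rat 1 and -0.14 in rat 2, the latter from 12 and 15 reads. That of MS+ against FBS was negative in rat 1 and 0.03 in rat 2, so only this comparison differed in sign between the rats. Between MS+ and MS- the difference was 0.15 (95% interval -1.15 to 1.45).

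**Figure D2:**
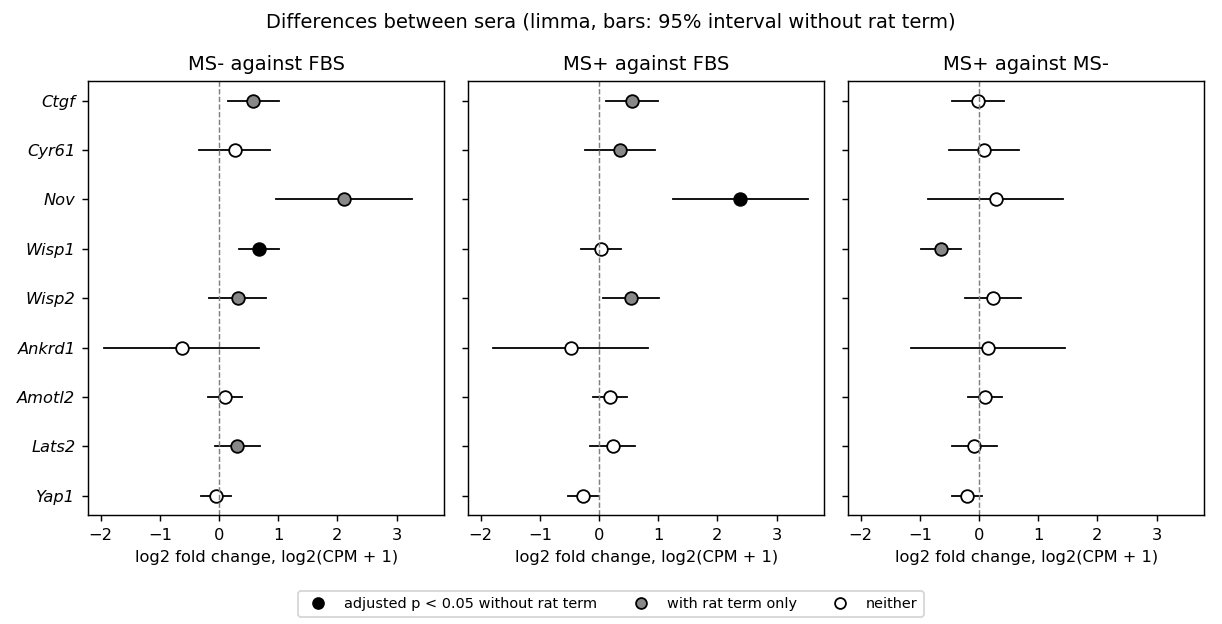
Log2 fold changes on log2(CPM + 1) (horizontal axes) of the 9 genes (vertical axis) in the 3 comparisons, with 95% intervals from limma without a rat term; black points passed at an adjusted p under 0.05, grey points only once the rat was added, white points in neither fit. Nov has the largest values against FBS, 2.11 and 2.39, and Wisp1 is the only filled point between MS+ and MS-.

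Counted over the 9 genes, 1 passed in MS- against FBS without the rat term (Wisp1), where 4.81% of all tested transcripts did, and 5 passed with it (Ctgf, Nov, Wisp1, Wisp2 and Lats2), where 20.5% did. For MS+ against FBS, 1 passed without the rat term (Nov), against 9.61% of all, and 4 with it (Ctgf, Cyr61, Nov and Wisp2), against 28.2%. Every one of these calls was a higher level than in FBS. Between MS+ and MS-, no member passed by limma without the rat term, against 0.0204% of all. The lowest unadjusted limma p among the members was 0.00277 (Wisp1). With the rat term 1 passed (again Wisp1, lower in MS+), against 10.1%. By edgeR without the rat term the count was also 0, beside 3 of all 9820 transcripts. By DESeq2 it was 1, beside 123 of all 9820. The study's rule took 1 member in each comparison with FBS, beside 3.62% of all transcripts for MS- and 5.3% for MS+, and none between MS+ and MS-, beside 1.24%.

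Without overlap between the groups were 4 members in MS- against FBS, against 51.6% of all transcripts; 6 in MS+ against FBS, against 56.7%; and 2 in MS+ against MS-, against 45.8%. The first pair of counts is near the share of all transcripts and the last is below it, so nothing is read from them. The median log2 fold change of the members was 0.31 for MS- against FBS, 0.23 for MS+ against FBS and 0.09 for MS+ against MS-, beside 0.01, 0.00 and -0.01 over all tested transcripts. The sign was shared by both rats for 8 of the 9 in MS- against FBS (7 higher, 1 lower), for 7 in MS+ against FBS (6 higher, 1 lower) and for 8 in MS+ against MS- (4 higher, 4 lower). The exceptions were Yap1 in the first, Wisp1 and Ankrd1 in the second and Cyr61 in the third. Of all 9820 tested transcripts, 7150, 7100 and 6541 had the same sign in both rats in these comparisons. With 9 genes, the counts of shared sign are a description only.

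**Figure D3:**
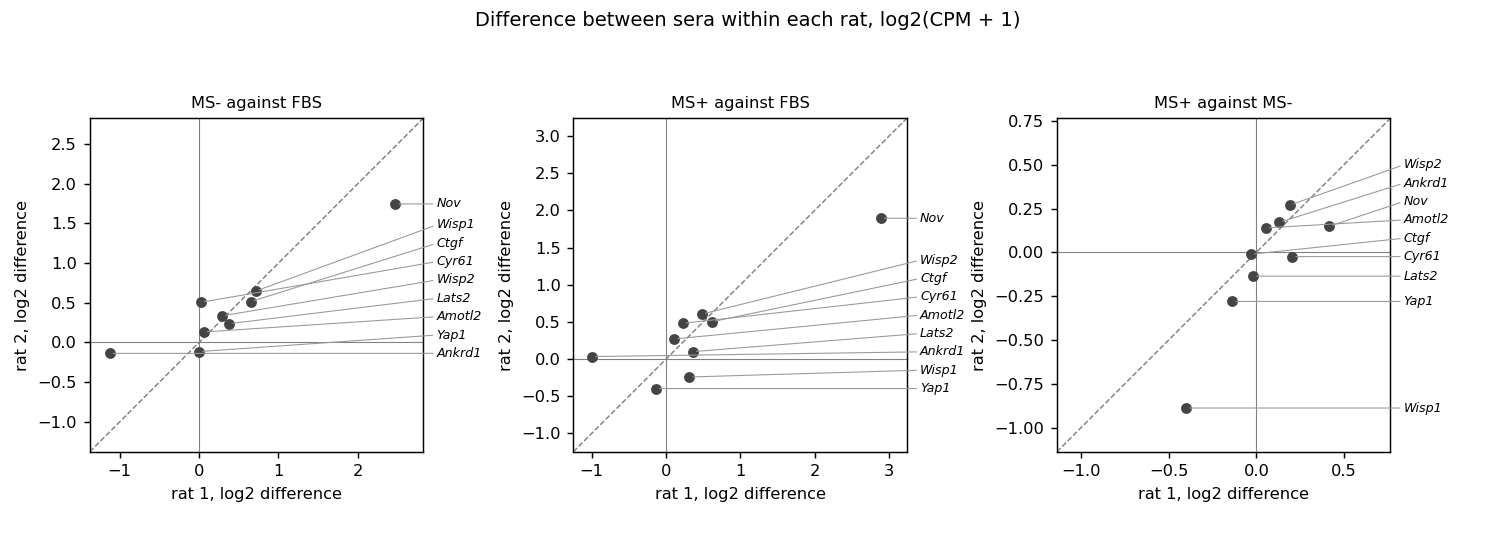
Difference between sera in rat 1 (horizontal axes) against that in rat 2 (vertical axes) on log2(CPM + 1), one point per gene; the dashed line marks equal differences, and each panel has its own scale. Nov stands far from the other genes in both comparisons with FBS, with 2.47 and 2.89 in rat 1 and 1.75 and 1.89 in rat 2, and Wisp1 stands apart between MS+ and MS-.

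The rats themselves differed in several of these genes. With serum in the fit, 5 members passed for rat 2 against rat 1, in a fit where 10.5% of all tested transcripts passed. Cyr61 was higher in rat 2 by 0.44 on the log2 scale (SE 0.09, limma adjusted p = 0.00283) and Nov by 0.92 (SE 0.13, limma adjusted p = 0.000117). Lower in rat 2 were Wisp2, at -0.37 (limma adjusted p = 0.00194), Ankrd1, at -0.98 (limma adjusted p = 0.00975), and Lats2, at -0.28 (limma adjusted p = 0.0158). For Nov, the gap between rats was 1.49 with FBS, 0.76 with MS- and 0.50 with MS+; whether the gaps differ was not tested. Ctgf and Wisp1 differed little between the rats on average (-0.01 and 0.01), as did Yap1 (-0.07), while Amotl2 was at -0.16 (limma adjusted p = 0.159). With 2 rats, a rat term describes these animals only.

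Further YAP targets did not move in a single direction. Of a list of 17, 13 had a transcript in the table and 12 were tested. The median difference, in log2 units, was 0.13 for MS- against FBS, -0.11 for MS+ against FBS and -0.08 for MS+ against MS-. Without the rat term, 2 rose in MS+ against FBS and none fell; in MS- against FBS 1 fell and none rose; and none passed between MS+ and MS-. F3, the tissue factor that starts coagulation, was measured at 28.2 and 37.5 CPM with FBS, 43.7 and 59.1 CPM with MS-, and 60.9 and 91.6 CPM with MS+. It was ordered FBS, MS-, MS+ in each rat and rose in MS+ against FBS by 1.18 (SE 0.24, limma adjusted p = 0.0314). Asap1, a regulator of Arf GTPases at focal adhesions, stood at 292 and 265 CPM, 355 and 385 CPM, and 470 and 459 CPM in the same order, without overlap between any groups, and rose in MS+ against FBS by 0.74 (SE 0.10, limma adjusted p = 0.00885). Gadd45a, a growth arrest gene, fell in MS- against FBS by 0.88 (SE 0.18, limma adjusted p = 0.0461, close to the threshold), from 68.4 and 54.2 CPM to 38.4 and 27.8 CPM. It was at 40.4 and 38.4 CPM with MS+. With the rat term, 4 rose and 1 fell in MS- against FBS, 3 rose and 1 fell in MS+ against FBS, and 2 rose (F3 at 0.55 and Asap1 at 0.33, limma adjusted p = 0.00502 and 0.0221) and 1 fell (Myof at -0.35, limma adjusted p = 0.0228) in MS+ against MS-. Over all tested transcripts, 20.5%, 28.2% and 10.1% passed in these comparisons with the rat term, and 4.81%, 9.61% and 0.0204% without it; the counts of this and the following lists are to be read against these shares.

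Among the kinases and scaffolds upstream of YAP, 14 of 19 had a transcript and 13 were tested, and none passed without the rat term in any comparison. Their medians were 0.13 for MS- against FBS, 0.02 for MS+ against FBS and -0.02 for MS+ against MS-. With the rat term, 4 of the 13 rose in each comparison with FBS, beside 20.5% (MS-) and 28.2% (MS+) of all transcripts passing in either direction. Taok1, a kinase that acts upstream of the cascade, had the largest value, 0.68 in MS- and 0.79 in MS+ (limma adjusted p = 0.00197 and 0.000426 with the rat term), followed by Mob1b, a LATS coactivator, at 0.51 in each (limma adjusted p = 0.0496 and 0.0401 with the rat term). Stk3, the kinase that activates LATS, had 42.7 and 50.7 CPM with FBS, 41.5 and 44.8 CPM with MS-, and 30.8 and 34.3 CPM with MS+. Both MS+ libraries were below the other 4, and with the rat term Stk3 fell in MS+ by 0.50 against FBS and by 0.40 against MS- (limma adjusted p = 0.00409 and 0.0404; 0.0617 and 0.249 without the rat term).

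Of 8 TEAD factors and cofactors, 6 had a transcript and 5 were tested, and 1 passed without the rat term. Wwtr1, which codes for TAZ, was at 109.7 and 106 CPM with FBS, 111 and 95.3 CPM with MS-, and 82.0 and 76.2 CPM with MS+. The MS+ libraries were the lowest in each rat. Wwtr1 fell in MS+ against FBS by 0.45 (SE 0.11, limma adjusted p = 0.0496, and 0.00213 with the rat term). The call without the rat term is close to the threshold, and values of Wwtr1 from the other models are not given here. Against MS- its value was -0.38 (limma adjusted p = 0.210, and 0.0180 with the rat term), and MS- against FBS was -0.07 (limma adjusted p = 0.768). Tead1, a DNA-binding partner of YAP and TAZ, stood at 63.2 and 85.2 CPM with FBS, 84.1 and 109.0 CPM with MS-, and 108 and 106 CPM with MS+. Its log2 fold change was 0.54 for MS+ against FBS and 0.38 for MS- against FBS (limma adjusted p = 0.103 and 0.275; 0.00184 and 0.0239 with the rat term), and 0.16 between MS+ and MS- (limma adjusted p = 0.731, and 0.401 with the rat term). Medians of this list were 0.09 for MS- against FBS, -0.16 for MS+ against FBS and -0.27 for MS+ against MS-; with the rat term, 1 rose in MS- against FBS, 1 rose and 2 fell in MS+ against FBS, and 1 fell in MS+ against MS-, beside 20.5%, 28.2% and 10.1% of all transcripts. The falls in MS+ against FBS were Wwtr1 and Tead2, the latter at 1.64 and 1.99 CPM with FBS and 0.360 and 0.551 CPM with MS+, near the floor of detection; Tead2 was named after its values were seen.

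Among CCN receptors, 6 of 9 had a transcript and were tested, with medians of 0.21, 0.13 and -0.01 for MS- against FBS, MS+ against FBS and MS+ against MS-. Sdc4, a heparan sulfate proteoglycan that serves as coreceptor for CCN proteins, was the only one to pass without the rat term. It was measured at 140 and 204 CPM with FBS, 258 and 326 CPM with MS-, and 517 and 525 CPM with MS+. None of the groups overlapped, and both rats had the order FBS, MS-, MS+. Sdc4 rose in MS+ against FBS by 1.62 (SE 0.19, limma adjusted p = 0.00694); its value was 0.78 in MS- against FBS (limma adjusted p = 0.0726, and 5.39e-05 with the rat term) and 0.84 in MS+ against MS- (limma adjusted p = 0.144, and 0.000130 with the rat term). With the rat term the integrin Itgb5 also rose against FBS, by 0.32 in MS- and 0.34 in MS+ (limma adjusted p = 0.0148 and 0.00895).

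**Figure D4:**
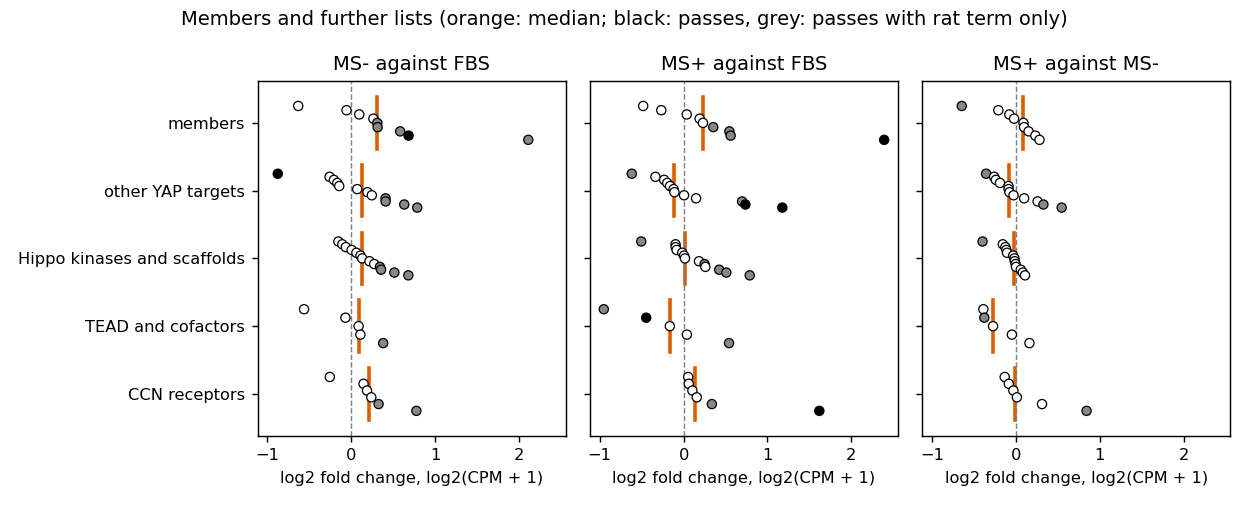
Log2 fold changes on log2(CPM + 1) (horizontal axes) of the tested genes of each list (vertical axis) in the 3 comparisons; orange bars are list medians, black points passed without the rat term, grey points only with it, and white points in neither fit. Sdc4 is the rightmost receptor in every panel, at 0.78, 1.62 and 0.84, and the further YAP targets lie on both sides of 0.

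For Ctgf, the 3 transcripts with the closest pattern among 7312 that averaged at least 10 CPM were Jam3, a junctional adhesion molecule, Pdgfa, a platelet-derived growth factor chain, and Dtx3, a ubiquitin ligase of the Deltex family. Likeness was the root mean square difference of centred log2(CPM + 1) values over the 6 libraries, at 0.0397, 0.0445 and 0.0457. Pdgfa, for example, stood at 114 and 129 CPM with FBS, 189 and 189 CPM with MS-, and 184 and 185 CPM with MS+. With so few libraries and so many transcripts, close patterns are a description only.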

How the data were processed

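Poly(A)-enriched RNA of the 6 cultures was sequenced on an Illumina instrument by a company for the authors. Per the labels, reads were aligned to rn4 with Bowtie2 2.1.0 and counted per transcript with HTSeq 0.5.4p3. The authors deposited a normalized signal in CPM, made by dividing counts by library sizes scaled with TMM (17221 transcripts, 4567 at 0 in every library). HTSeq discards reads shared by overlapping transcripts, and use of strand was not stated. Dividing by the value of 1 read gave whole reads for 100% of values (tolerance 1e-06 reads). Floors of 3 reads cover counting error only, since PCR copies were not marked.

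Transcripts with at least 1 CPM in both libraries of a serum were tested with limma 3.58.1 (R 4.3.3, lmFit and eBayes with a trend, two-sided). Values were log2(CPM + 1), a scale that understates changes of low genes. All 6 libraries shared 1 fit with serum as its term, and p-values were Benjamini-Hochberg adjusted over 9820 transcripts. The design named this test for a normalized unit, with edgeR 4.0.16, limma-voom and DESeq2 1.42.0 on recovered reads as alternatives. The study applied its thresholds to limma-voom, so calls under its rule here are not the same measure. Replicate numbers stand for the 2 rats named in the labels of every group and so pair the libraries. The difference between rats correlated across transcripts by 0.59 (MS+ and MS-), 0.494 (MS+ and FBS) and 0.616 (MS- and FBS), so a fit with the rat as block was run as well. Scripts were tested on simulated data.

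The members and the further lists were chosen with earlier results of these data known. From each further list, the 2 largest rises and falls that passed were named per comparison, from the fit with the rat where none passed without it; Wwtr1 and Tead1 were always named, as were the 3 transcripts closest to Ctgf. Promoter sequences are RefSeq, GRCr8, used for sequence only.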

Additional observations from a re-analysis of the deposited data

How the results depend on the processing

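With 2 libraries per serum, the number of members that passed at an adjusted p under 0.05 depended on the model. A count could also stay the same while the gene changed. In MS- against FBS, edgeR and limma-voom passed Ctgf (adjusted p = 0.0330 and 0.0302) and not Wisp1 (adjusted p = 0.0505 and 0.0510). In MS+ against MS- the count of 0 became 1 with the replicate block (the rat), 1 with DESeq2 on recovered reads and 1 with edgeR plus the block. Over all 9820 tested transcripts, 2 passed in the first fit, and 987, 123 and 1015 in these fits. In MS+ against FBS the count of 1 became 4 with the block and 0 without the low-value filter. It was 2 with edgeR, 2 with limma-voom, 2 with DESeq2 and 4 with edgeR plus the block. Over all tested transcripts, 944 passed in the first fit, 2773 with the block and 586 of 12654 without the filter. With edgeR, limma-voom, DESeq2 and edgeR plus the block, 944, 912, 822 and 2861 passed. The call of Nov was lost in some fits with 1 library left out, as given above. In MS- against FBS the count of 1 became 5 with the block, 0 without the filter, 2 with DESeq2 and 6 with edgeR plus the block. The gene added by edgeR plus the block was Ankrd1, lower in MS-. Over all tested transcripts, 472 passed in the first fit, and 2011, 255 (of 12654), 539 and 2073 in these fits. The call of Wisp1 was lost when any 1 library was left out, as given above. Under the study's rule both comparisons with FBS kept 1 member, Nov, in every fit on all 6 libraries. Without FBS replicate 2, Ankrd1 also exceeded a 2-fold difference, being lower than in FBS by log2 values of -1.46 (MS-) and -1.31 (MS+).

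Values changed sign when 1 library was left out, over ranges of -0.0526 to 0.0104 (Ctgf), -0.25 to 0.43 (Cyr61), -0.10 to 0.66 (Nov), -0.18 to 0.48 (Ankrd1) and -0.28 to 0.12 (Lats2) in MS+ against MS-, of -0.13 to 0.21 (Wisp1) and -1.31 to 0.35 (Ankrd1) in MS+ against FBS, and of -0.0762 to 0.60 (Cyr61), -1.46 to 0.19 (Ankrd1) and -0.0243 to 0.21 (Amotl2) in MS- against FBS. None of these passed by limma with or without the block; Ankrd1 in MS- against FBS passed by edgeR plus the block (-0.99, adjusted p = 0.0427). Scaling by library totals turned Wisp1 in MS+ against FBS to -0.0111. A pseudocount of 0.1 CPM and DESeq2 size factors left all 27 member values with their direction and side of the threshold. The cause of the lost or gained calls was not tested. Fits with 1 library left out had no rat term, so the difference between the rats enters their values. Cyr61 in MS+ against MS-, and Wisp1 and Ankrd1 in MS+ against FBS, also differed in sign between the rats. The other values listed as changing sign had the same sign in both rats. Fits with 1 library left out also assume that the lone library varies like the other groups.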
